A study of Homo sapiens with 9 samples.

Results

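The genes *EVA1C*, on chromosome 21, and *TK2*, on chromosome 16, lie beside the 2 highest-scoring peaks of open chromatin that the list labelled stimulus withdrawal (SW) after DMSO held without a counterpart in non-stimulated (NS) cells. They were selected on that score and on the missing NS peak, both known from earlier results of these data, so the values of those 2 regions are a description and no test is made of them. Members of the 2 loci were all merged regions, made by joining overlapping or touching peaks of the 4 deposited lists, that reached into the gene body or lay within 50 kb of the gene's transcription start site (TSS). This gave 14 of 40703 regions on the autosomes, X and Y, of which 5 were at *EVA1C* and 9 at *TK2*.

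The study followed chromatin accessibility through activation, withdrawal and re-activation in Jurkat cells (clone E6-1), an established human T cell leukaemia line, so the lists describe 1 clone in culture and not primary T cells. Per the labels, NS cells received DMSO as vehicle, SW cells received DMSO, were stimulated for 4 h with PMA and ionomycin, washed and kept for 1 day, and the remaining lists came from NS and SW cells given 15 µM rottlerin, an inhibitor of protein kinase C, for 1 h beforehand. The study's methods describe peak calling on the DMSO samples of all 4 states instead. The 40731 regions pooled there equal the number from these lists, so which cells the 3 lists other than NS describe is in doubt. These lists are therefore named throughout as labelled, and no statement on rottlerin or on withdrawal is drawn from them. Each list held 1 library, so differences between lists have no replicate check, and p-values were not computed.

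Formaldehyde-assisted isolation of regulatory elements (FAIRE) recovers DNA that is not held by nucleosomes, so a peak marks a stretch of open chromatin such as a promoter or an enhancer. *EVA1C* encodes a transmembrane protein with lectin-like domains that binds heparin and the SLIT guidance proteins, and it is known mainly from work on axon guidance. *TK2* encodes the mitochondrial thymidine kinase, which phosphorylates thymidine and deoxycytidine and so supplies precursors for mitochondrial DNA in cells that are not copying their nuclear genome. T cell activation through PMA and ionomycin is known to work through protein kinase C and calcium, which act on factors of the AP1 and NFAT families. Matches to the short consensus sequences of such factors are marked below as letters in the reference sequence and are not taken as bound sites.

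The sequences of the 2 intron regions come first, because the strongest signals at both loci lay in them. Positions are on GRCh37 (Hg19), forward strand, and capitals mark matches on either strand. The sequences sought were TGANTCA for AP1, the FOS and JUN proteins, TGGAAA for NFAT, which enters the nucleus on calcium signals, and AGGAAG for the ETS family. Further ones were TGTGGT for RUNX, a family that shapes T cell identity, AGATAA for the GATA family, and CACCTG, an E-box read by basic helix-loop-helix proteins. Only these 6 of the 12 searched had a match in the stretches shown. The *EVA1C* stretch, chr21:33865683-33865982, lies in the part common to the 3 peaks in intron 4 of the principal transcript EVA1C-201 and ends inside the first exon of EVA1C-213, a transcript without a defined coding sequence that starts at position 33865963. The *TK2* stretch, chr16:66556103-66556375, is the part common to the 3 peaks in intron 6 of the principal transcript TK2-207 and touches no annotated exon. The last stretch, chr16:66557921-66558124, lies in the same intron and is common to the peaks of all 4 lists, NS included, which makes it the nearest comparison for the *TK2* stretch.
EVA1C intron 4: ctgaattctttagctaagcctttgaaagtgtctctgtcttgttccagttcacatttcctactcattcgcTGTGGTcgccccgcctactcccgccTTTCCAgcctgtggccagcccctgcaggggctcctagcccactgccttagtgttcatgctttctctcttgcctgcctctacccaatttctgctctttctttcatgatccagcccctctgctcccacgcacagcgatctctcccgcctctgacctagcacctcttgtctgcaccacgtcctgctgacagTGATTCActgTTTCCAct
TK2 intron 6: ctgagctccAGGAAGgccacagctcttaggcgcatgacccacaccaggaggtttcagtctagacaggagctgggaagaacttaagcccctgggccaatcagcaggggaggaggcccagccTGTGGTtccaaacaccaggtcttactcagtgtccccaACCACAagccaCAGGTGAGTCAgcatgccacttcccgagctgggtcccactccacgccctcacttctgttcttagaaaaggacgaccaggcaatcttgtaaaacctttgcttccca
TK2 intron 6, with NS peak: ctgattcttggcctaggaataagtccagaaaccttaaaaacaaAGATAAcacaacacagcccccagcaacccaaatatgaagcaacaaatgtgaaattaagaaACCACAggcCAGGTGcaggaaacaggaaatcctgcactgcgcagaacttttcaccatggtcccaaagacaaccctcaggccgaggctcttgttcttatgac

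In the *EVA1C* stretch the RUNX match began at base 70, an NFAT match at base 95, the AP1 match TGATTCA at base 283 and a further NFAT match at base 293. The AP1 match, at positions 33865965 to 33865971 of chromosome 21, began 2 bp after the start of EVA1C-213. In the *TK2* stretch an ETS match began at base 10, RUNX matches at bases 121 and 158, the E-box match CAGGTG at base 169 and the AP1 match TGAGTCA at base 173, so that the E-box and AP1 matches overlapped. The neighbouring stretch with an NS peak held a GATA, a RUNX and an E-box match and no AP1 match. All 3 stretches had a RUNX match, which 32.8% of all regions hold in their central 300 bases, and the 2 without an NS peak had an AP1 match, which 17.9% hold. The *EVA1C* stretch was placed after the values were seen. The central 300 bases of the merged *EVA1C* region, the window set for the motif search, matched ETS and neither RUNX nor AP1. The neighbouring stretch with an NS peak lay outside the central 300 bases of its merged region, where 0 of the families searched matched. Of the 3 regions, only the *TK2* region without an NS peak matched RUNX and AP1 in the central window. The 2 shares are therefore like for like with that region alone.

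The 4 lists held 18977 (NS), 20132 (labelled SW, DMSO), 23835 (labelled NS, rottlerin) and 30409 (labelled SW, rottlerin) peaks. Their median fold enrichment over the total input, which is the library of unselected DNA, was between 4.03 and 4.08, and their highest was between 11.4 and 11.9. Read depth is unknown from these lists, so a missing peak means only that none was called, and a list with more peaks had more chances to hold a peak at a locus. Fold enrichment and score are the authors' values for a whole peak, which the broad mode of MACS2 averages over its length. The score grows with the significance of a peak, as the −log10 of its q-value multiplied by 10 and cut to a whole number. Peaks with a q-value above 0.05 numbered 207, 163, 217 and 427 in the 4 lists, in the order given above.

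At the *EVA1C* locus 1 of 5 regions lacked an NS peak, and at the *TK2* locus 6 of 9 did, where 53.5% of all regions lacked one (95% Wilson interval 53 to 54%, for counting error only). A peak in every list but NS was found for 1 region at each locus, the 2 intron regions for which the loci were chosen, and for 7.08% of all regions (6.84 to 7.34%). Since this contrast chose the loci, nothing is read from these shares. The NS list alone held a peak in 3 of 5 regions at *EVA1C* and in 0 of 9 at *TK2*, and in 7.83% of all regions (7.57 to 8.09%). The NS list had peaks in 4 regions at *EVA1C* and each other list in 2, whereas at *TK2* the NS list had peaks in 3 regions and the others in 5, 6 and 6. The NS list had a peak in 46.5% of all regions, and the other lists, in the order given above, had one in 49.3%, 58.4% and 74.5%.

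*EVA1C* (ENSG00000166979.13) runs on the forward strand of chromosome 21 from 33784314 to 33887707, a length of 103 kb with 13 annotated transcripts, and its principal transcript has 8 exons. The window searched for its regions spanned 153 kb. No region lay at the gene start itself. The nearest one was 8.68 kb before it, and the only region within the gene was the intron 4 region, 81.3 kb after it.

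**Figure D1:**
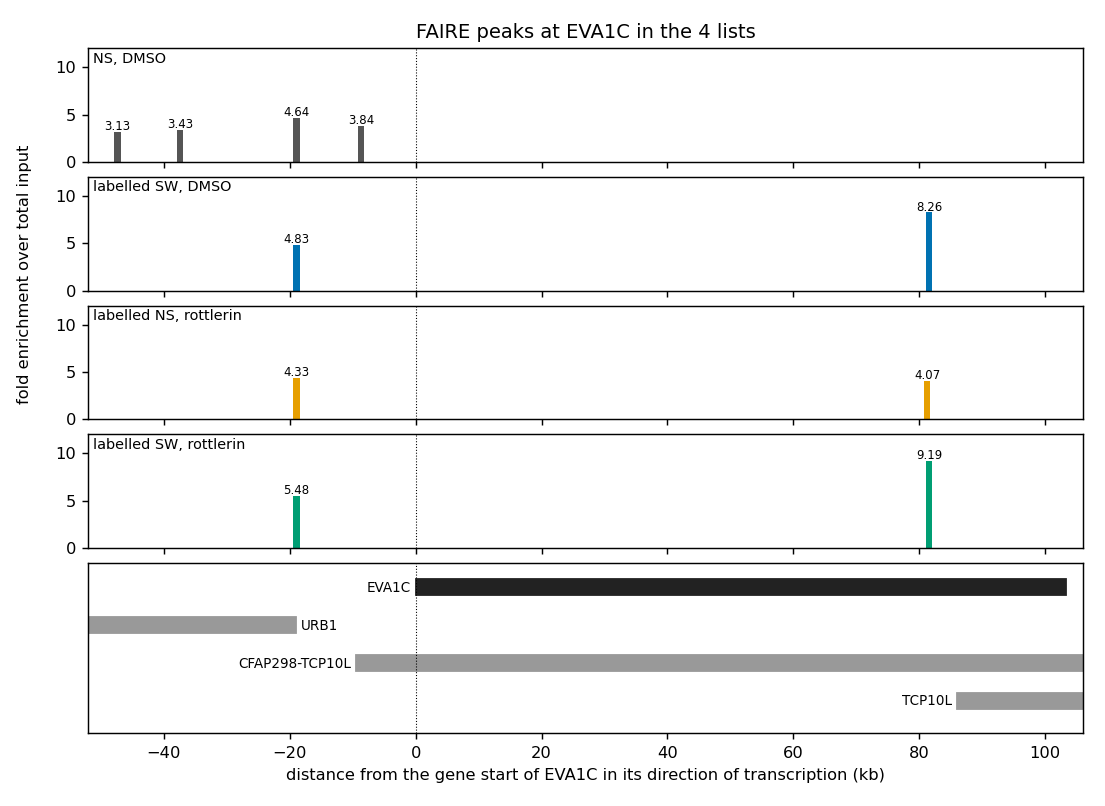
Fold enrichment over total input (vertical axis, linear, from 0) of each peak at *EVA1C* in the 4 lists against distance from the gene start in kb, with the protein-coding genes of the window below. Bars are centred on the peaks and drawn wider than them. NS bars stand only before the gene start, at 3.13 to 4.64, and the bars of the other lists at 81.3 kb reach 8.26, 4.07 and 9.19.

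The intron 4 region spanned positions 33865094 to 33866084, or 991 bp. Its fold enrichment was 8.26 in the list labelled SW, DMSO, 4.07 in the list labelled NS, rottlerin, and 9.19 in the list labelled SW, rottlerin, with scores of 245, 52 and 293. No NS peak lay within 89.3 kb. The region was thus high in both lists labelled SW and near the list's median in the list labelled NS, rottlerin, and its highest value was 2.26 times its lowest.

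The peaks of this region also differed in width. In the list labelled SW, DMSO the peak ran from 33865660 to 33866084 (425 bp), and in the list labelled SW, rottlerin from 33865634 to 33866084 (451 bp). In the list labelled NS, rottlerin it ran from 33865094 to 33866052 (959 bp), so that the narrow peaks covered 42.9% and 45.5% of the merged region. Whether the lower value of the wide peak goes with its length was not tested. The start of EVA1C-213 lay inside all 3 peaks. The gene *CFAP298-TCP10L*, a read-through of the cilia gene *CFAP298* and of *TCP10L*, spans the region on the opposite strand without an exon there.

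**Figure D2:**
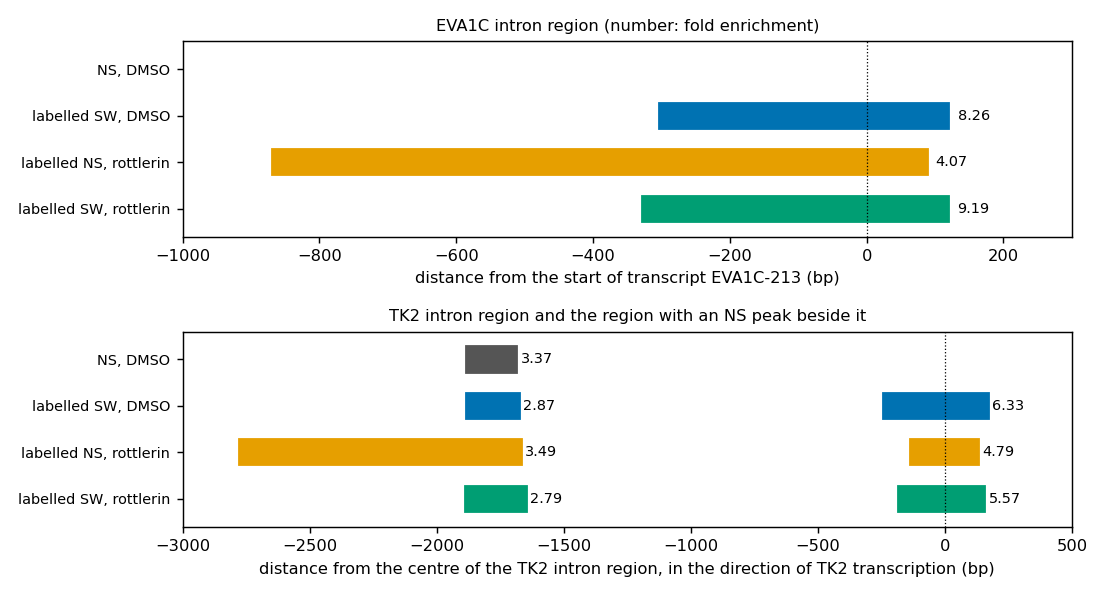
Extent of each peak, in bp, with its fold enrichment as a number. Above, the *EVA1C* intron region relative to the start of EVA1C-213, where the peaks are 425, 959 and 451 bp wide and the NS row is empty. Below, the *TK2* intron 6 region and, upstream of it, the region with an NS peak of 3.37.

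Within its own list, the *EVA1C* intron peak had a fold enrichment above 99.7% of peaks in the list labelled SW, DMSO, above 49.5% in the list labelled NS, rottlerin, and above 99.8% in the list labelled SW, rottlerin. Among the 2883 regions in every list but NS, it ranked 7th by its highest value and 660th by its lowest. Among peaks without an NS peak it held the top score in both lists labelled SW, of 7508 and 16296 such peaks, and place 3143 of 10069 in the list labelled NS, rottlerin. Ranked by fold enrichment in place of score, it stood at places 2, 9 and 3296. The first place at this locus therefore belonged to the lists labelled SW by score and to none by fold enrichment.

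The other *EVA1C* regions all lay before the gene. The one nearest to it lay inside *CFAP298-TCP10L*, and the rest lay in or at the start of *URB1*, which encodes a protein of ribosome biogenesis. The region 18.9 kb before the gene start (33765224 to 33765508, 285 bp) had a peak in all 4 lists, of 4.64 in NS and 4.83, 4.33 and 5.48 in the others. Its midpoint lay 45 bp from the start of URB1-201 and 38 bp from that of the antisense RNA *URB1-AS1*, it overlapped untranslated exon sequence of the former, and its central 300 bases held 70% G or C and 28 CpG. It thus lay at the starts of *URB1* and its antisense partner, away from that of *EVA1C*. Divided by the NS value, its fold enrichment was 1.04, 0.933 and 1.18, where the median over all regions with peaks in both lists was 0.98, 1.04 and 1.06. All 3 ratios lay within the 5th to 95th percentiles over all such regions, the widest of which ran from 0.765 to 1.48.

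A peak in the NS list alone marked the other 3 regions at *EVA1C*. They were chr21:33736871-33737080 in intron 10 of *URB1* (3.13, above 9.83% of NS peaks), chr21:33746503-33747178 in *URB1* intron 6 (3.43, above 22.2%) and chr21:33775526-33775746 inside *CFAP298-TCP10L* outside any exon (3.84, above 40.7%). All 3 were below the NS list's median of 4.05. Their scores of 23, 17 and 44 were low as well, the lowest above 5.38% of NS peaks. Only 0.184% of 20163 protein-coding genes had more regions of the NS list alone than *EVA1C*, and 99.4% had fewer. All 3 lay before the gene start and outside the gene body, so the length of *EVA1C* added none of them. The share was not set against the length of the other genes.

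*TK2* (ENSG00000166548.17) runs on the reverse strand of chromosome 16 from 66586447 down to 66541906, a length of 44.5 kb with 55 annotated transcripts, and its principal transcript TK2-207 has 10 exons and starts at 66584025. Its window spanned 100 kb. The gene start lies 0.019 kb from that of *CKLF*, which encodes a chemokine-like factor and is read in the opposite direction. The outermost annotated starts of the 2 genes thus lie side by side, and a region there cannot be assigned to one of them. The region at these starts lay 2.44 kb from the start of TK2-207. Whether the 2 genes share a promoter was not tested.

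**Figure D3:**
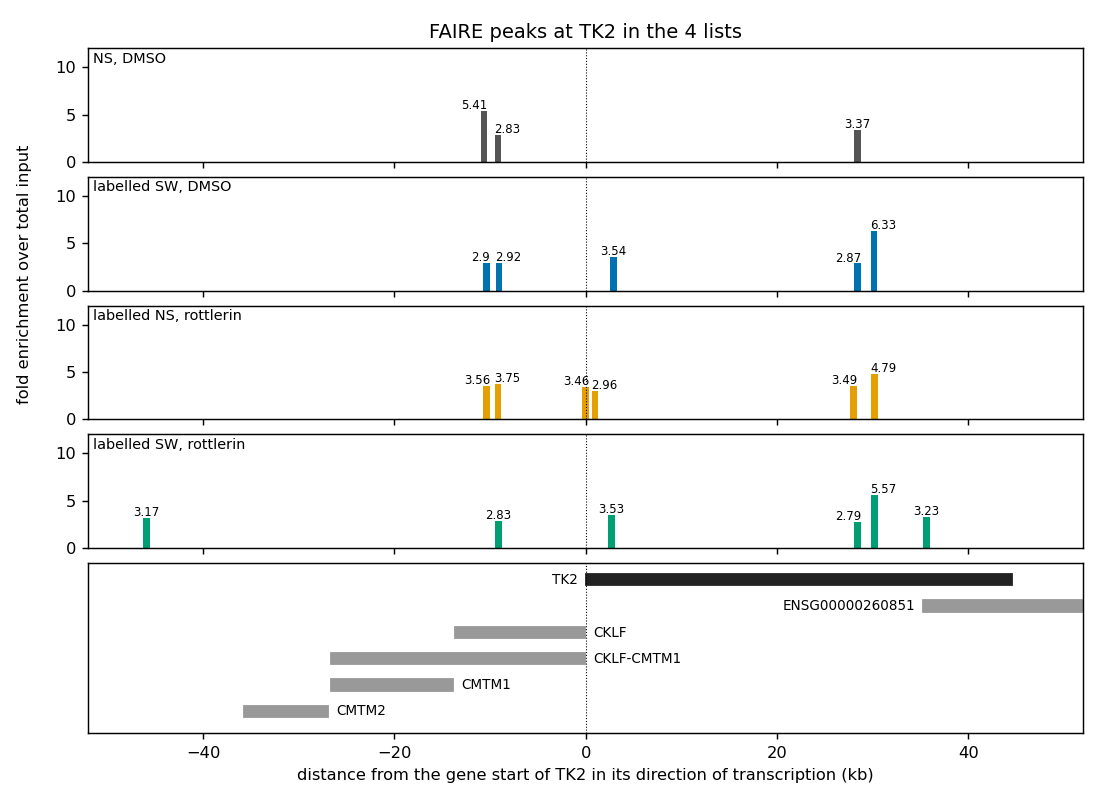
Fold enrichment over total input (vertical axis, linear, from 0) of each peak at *TK2* in the 4 lists against distance from the gene start in kb, in the direction of *TK2* transcription, with the protein-coding genes of the window below. Bars are centred on the peaks and drawn wider than them. At 30.2 kb the NS row is empty and the other rows show 6.33, 4.79 and 5.57, and the tallest NS bar, 5.41, stands before the gene start in *CKLF*.

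The intron 6 region of *TK2* spanned positions 66556066 to 66556481 (416 bp), 30.2 kb after the gene start. Its fold enrichment was 6.33 in the list labelled SW, DMSO, 4.79 in the list labelled NS, rottlerin, and 5.57 in the list labelled SW, rottlerin, with scores of 217, 112 and 163. The order of the lists was not that of *EVA1C*, with the list labelled SW, DMSO at the top, and its highest value was 1.32 times its lowest. The peaks were 416, 273 and 345 bp wide, so the widest peak was here also the highest. These values lay above 95.7%, 73% and 87.2% of the peaks of their lists. Among the 2883 regions in every list but NS, the region ranked 212th by its highest value and 161st by its lowest. By score among peaks without an NS peak it stood at places 2, 202 and 130, and by fold enrichment at places 75, 1126 and 794.

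The nearest NS peak lay 1.44 kb away in the same intron, in the region chr16:66557883-66559017 with a peak in all 4 lists. Its fold enrichment was 3.37 in NS and 2.87, 3.49 and 2.79 in the other lists, and scores were 50, 28, 51 and 23. All 4 values were below the list medians, so the region with an NS peak was the weaker of these neighbours in each of the 3 lists that had both. Relative to NS it stood at 0.85, 1.03 and 0.827, higher than 18.8%, 49.7% and 9.4% of regions with peaks in both lists. An exon of TK2-215 overlapped it. The peak was 1113 bp wide in the list labelled NS, rottlerin and 204 to 244 bp wide in the others.

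Around the start of *TK2* no NS peak was found. The region chr16:66583245-66583871, 0.467 kb inside the start of the principal transcript, had peaks of 3.54 and 3.53 in the lists labelled SW, DMSO and SW, rottlerin. It overlapped exons of 14 *TK2* transcripts, coding sequence of 7 and untranslated sequence of 6, and its central bases held 67% G or C and 25 CpG. The list labelled NS, rottlerin held instead the regions chr16:66585382-66585563 (2.96) and chr16:66586342-66586578 (3.46), the latter with its midpoint 6 bp from the start of CKLF-207 and 0.013 kb from the *TK2* gene start, with 31 CpG. Over all regions 6.26% had peaks in just the lists labelled SW, DMSO and SW, rottlerin, and 8.42% in the list labelled NS, rottlerin alone. Their fold enrichment was at most above 27.8% of the peaks of a list, and the region by CKLF-207 had a score of 89, above 72.4% of its list.

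Before the gene start, 2 regions in *CKLF* had NS peaks. The region chr16:66595417-66595770 in *CKLF* intron 2 had values of 2.83 in NS and 2.92, 3.75 and 2.83 in the others, or 1.03, 1.33 and 1 relative to NS. The NS peak there had a −log10 q of 1.25, so its q-value was above 0.05. The region chr16:66596505-66597205, over exons of 5 *CKLF* transcripts, had 5.41 in NS, 2.9 in the list labelled SW, DMSO, 3.56 in the list labelled NS, rottlerin, and no peak in the list labelled SW, rottlerin. Of the 7 members with an NS peak this one had the highest NS value. It stood at 0.535 and 0.657 relative to NS, below the 5th percentiles of 0.727 and 0.767, and 0.159% and 1.14% of regions had a lower ratio. The NS peak was 223 bp wide and the other peaks 637 and 640 bp, and what part this difference in width had in the ratios was not tested. Only 0.83% of all regions had this combination of lists.

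The remaining *TK2* regions had a peak only in the list labelled SW, rottlerin, the longest list. One, chr16:66550743-66550927, lay in *TK2* intron 8, 270 bp from the start of a transcript of the neighbouring gene ENSG00000260851, with a fold enrichment of 3.23. The other, chr16:66632155-66632650, lay between genes 46 kb before the start, 5375 bp from the nearest start of *CMTM3*. Its fold enrichment was 3.17 and its score 10, which no peak of that list fell below. Its −log10 q was 1.06, so its q-value was above 0.05. Over all regions 18.2% had a peak in that list alone.

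**Figure D4:**
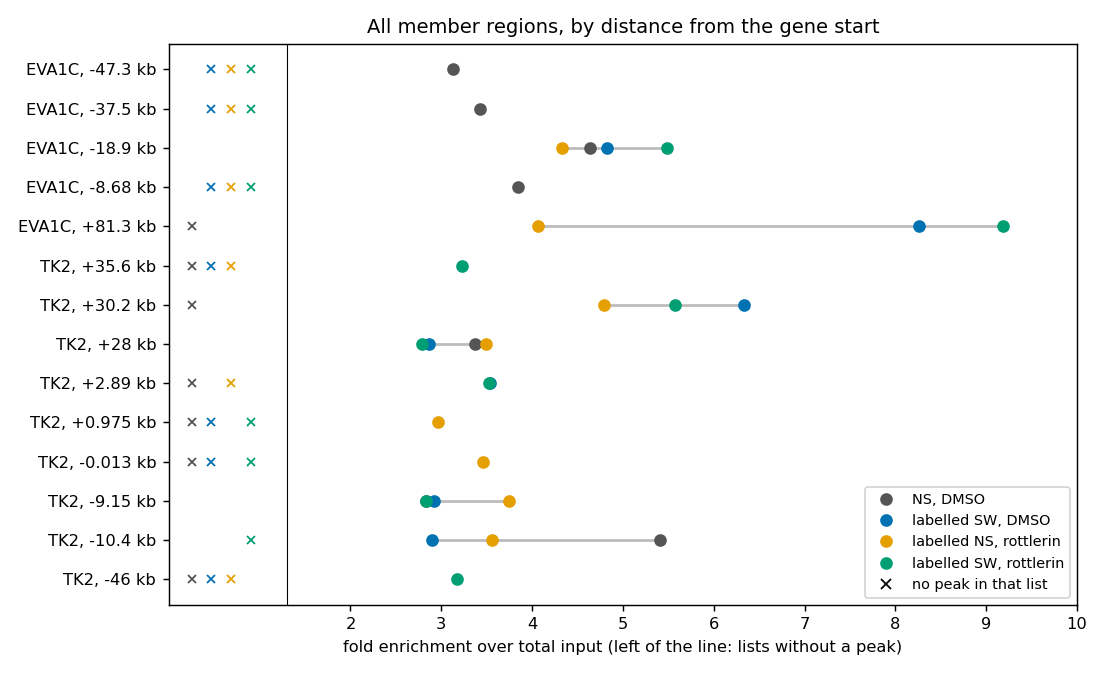
Fold enrichment over total input (horizontal axis) of the 14 regions in each list, in order of position along the chromosome and named by distance from the gene start, with crosses at the left for lists without a peak. The *EVA1C* region at 81.3 kb reaches 9.19 and the *TK2* region at 30.2 kb 6.33, and every point of the other 12 regions is at 5.48 or lower.

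At the edges of the rule, the outermost members before the gene starts lay at 47.3 kb (*EVA1C*, 3.13 in NS) and 46 kb (*TK2*, 3.17). Just outside *EVA1C* were a region of the NS list alone with 4.09, 89.1 kb before the start, and one of the list labelled SW, rottlerin, with 3.29, 127 kb after it. Just outside *TK2* were regions of both lists labelled rottlerin, with 4.07 and 3.83 at 73.7 kb after the start and 3.16 and 3.13 at 51.7 kb before it. These regions outside the windows were all at 4.09 or lower.

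Set beside all 2883 regions in every list but NS, which had medians of 3.89, 3.95 and 4.3 in the 3 lists, the *EVA1C* intron region was higher in each list and so was that of *TK2*. *EVA1C* lay above 99.9%, 56.3% and 99.8% of these regions and *TK2* above 98.2%, 81.6% and 84.8%. *EVA1C* had the higher peak in both lists labelled SW and *TK2* in the list labelled NS, rottlerin, and the *TK2* values lay closer together. The next 3 peaks by score without an NS peak in the list labelled SW, DMSO were nearest *IRF4*, *MXI1* and *LAT*. *IRF4* is a transcription factor of lymphocytes and *MXI1* a repressor that pairs with MAX. *LAT* is the adaptor that couples the T cell receptor to its signalling chain. The midpoints of these peaks lay 55185, 3979 and 39938 bp from the nearest starts of these genes. Fold enrichments in the 3 lists were 6.23, 4.63 and 6.82 (*IRF4*), 6.5, 3.55 and 5.48 (*MXI1*) and 6.29, 4.17 and 6 (*LAT*). All 5 had their lowest value in the list labelled NS, rottlerin. They were picked by score in the list labelled SW, DMSO, which favours high values there, so nothing is read from this pattern. *TK2* had the highest value of the 5 in the list labelled NS, rottlerin, and *EVA1C* the highest in both lists labelled SW.

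**Figure D5:**
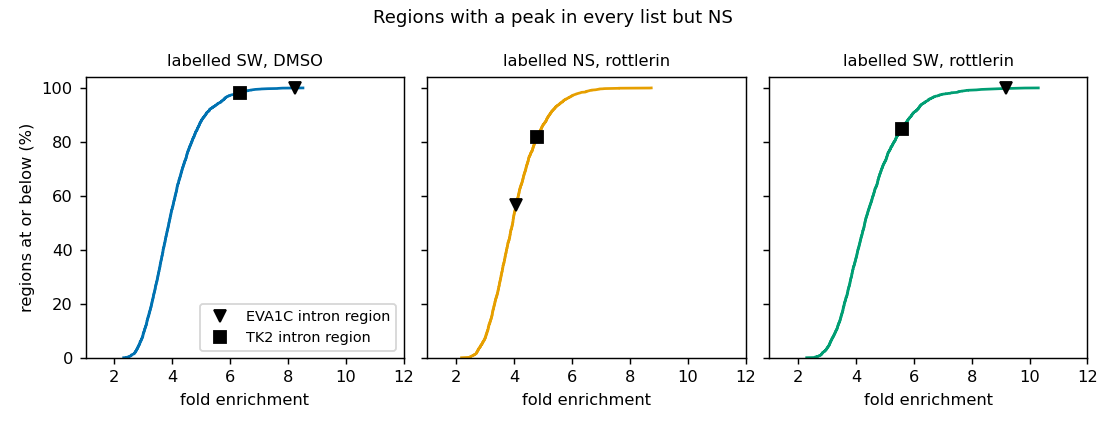
Share of the 2883 regions with a peak in every list but NS (vertical axis, percent) at or below each fold enrichment (horizontal axis), in 1 panel for each list. The *EVA1C* marker stands at the top of the curve in both lists labelled SW (8.26 and 9.19) and near the middle at 4.07 in the list labelled NS, rottlerin, and the *TK2* marker on the upper part of all 3 curves.

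Over 20163 protein-coding genes counted in the same way, the median was 3 regions. *EVA1C*, with 5, had more than 71.3% of genes, and *TK2*, with 9, had more than 94.6%. *TK2*, with 6 regions without an NS peak, had more of these than 96.5% of genes. *EVA1C*, with 1, was at the median, above 32% of genes and below 40.6%. Each locus was chosen for a region of this kind, so these ranks are a description. A region in every list but NS was found at 18.3% of genes, a region without an NS peak at 68% and a region of the NS list alone at 17.6%.

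Neighbouring genes shared these regions because their windows overlapped. *URB1*, with its start 19 kb from that of *EVA1C*, had 5 regions, 4 of the NS list alone and 1 in all 4 lists, and none without an NS peak. *CFAP298-TCP10L* had 5 regions, including the *EVA1C* intron region, and *TCP10L*, which overlaps the end of *EVA1C*, had 3, none of them in every list but NS. The pseudogene *EXOSC3P1* inside *EVA1C* also had the intron region in its window. The next coding genes beyond were *MRAP*, which encodes an accessory protein of the melanocortin receptor, and *CFAP298*, each with 2 regions and none without an NS peak.

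On the *TK2* side *CKLF* and the read-through gene *CKLF-CMTM1* each had 9 regions with 6 lacking an NS peak, and *CMTM1* had 10 with 7. *CMTM2* had 7 regions with 5 lacking an NS peak and none in every list but NS. *CMTM1*, *CMTM2* and *CMTM3* encode membrane proteins of the chemokine-like MARVEL family. The gene ENSG00000260851, which overlaps the end of *TK2*, had 10 regions with 6 lacking an NS peak. Beyond them *BEAN1* had 2 regions and *CMTM3* 5, none of them in every list but NS. The intron 6 region was thus the single region in every list but NS in these windows on chromosome 16, and it counted for *CKLF*, *CKLF-CMTM1*, *CMTM1*, ENSG00000260851 and *TK2* alike.

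Among genes related by function, the *EVA1* family members *EVA1A* and *EVA1B* had 7 regions, 3 of them without an NS peak and 0 in every list but NS. The 7 genes of the SLIT proteins and their ROBO receptors had 22 regions, 10 without an NS peak. Of these, 2 were in every list but NS, at the receptor genes *ROBO2* (3, 4.05 and 4.87) and *ROBO3* (3.07, 3.58 and 3.09), and 4 regions of the NS list alone were all at the ligand gene *SLIT1*. The *ROBO2* and *ROBO3* values were below those of the *EVA1C* region in every list. The closest were 4.05 against 4.07 in the list labelled NS, rottlerin. *EVA1C* was chosen for its high score in the list labelled SW, DMSO, so nothing is read from this comparison.

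The other deoxynucleoside kinases, *TK1* in the cytosol, *DCK* for deoxycytidine and *DGUOK* in mitochondria, had 10 regions, 5 without an NS peak. Only *DCK* had a region in every list but NS, with 3.83, 4.59 and 4.88. The 17 genes of mitochondrial DNA upkeep and nucleotide supply had 69 regions, of which 35 lacked an NS peak and 3 were in every list but NS. Those 3 were at *TWNK*, the mitochondrial helicase, with 2 regions, the stronger at 4.46, 4.28 and 3.49, and at *SLC25A4*, the exchanger of ADP and ATP, with 4.38, 3.44 and 4.21. The polymerase genes *POLG* and *POLG2* and the packaging factor gene *TFAM* had 3, 2 and 2 regions and none in every list but NS. Genes with such a region numbered 0 of 2, 2 of 7, 1 of 3 and 2 of 17 in the 4 groups, where 18.3% of all protein-coding genes had one. In the list labelled SW, DMSO the *TK2* region, at 6.33, exceeded the regions named at these genes. *TK2* was chosen for its high score in that same list, so nothing is read from this.

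The central 300 bases of the *EVA1C* region, which lie mostly outside its narrow peaks, held 41% G or C and 1 CpG, and the 393 bp shared by its 3 peaks held 51.7% and 8 CpG. In the central 300 bases the *TK2* region held 55% and 5 CpG, where the medians over all regions and over those in every list but NS were both 46.3% and 4 CpG. In either window both intron regions held fewer CpG than the region at the *URB1* start, with 28, or that at CKLF-207, with 31.

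Of 12 consensus sequences searched on both strands in the central 300 bases, AP1 (TGANTCA) matched in 17.9% of all regions and 36.7% of those in every list but NS. The form TGAGTCA, found at *TK2*, matched in 13.2% and 29.8%, and the form TGATTCA, found at *EVA1C*, in 5.77% and 9.5%. RUNX matched in 32.8% and 33.2%, NFAT in 28% and 26.3%, ETS in 42.2% and 47.7%, GATA in 21% and 19.7% and the E-box CACCTG in 21.4% and 17.7%. The remaining families were CRE (TGACGTCA) with 0.98% and 1.18%, EGR (GCGNGGGCG) with 3.89% and 3.4%, NR4A (AAAGGTCA) with 1.45% and 1.32%, CAGCTG with 17.1% and 15.4%, SP/KLF (GGGCGG) with 22.6% and 19.9% and NFkB with 7.28% and 8.36%.

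In this central window the *TK2* intron region matched AP1, RUNX and the E-box, and the *EVA1C* region matched ETS alone, because its merged centre lay outside the narrow peaks. In the stretch shared by the 3 lists at *EVA1C*, it matched AP1, NFAT and RUNX, a window chosen after the values were seen. An AP1 match in the central window was also present in the *TK2* region of intron 8 and in the NS region of *URB1* intron 6, so AP1 letters were found in members with and without an NS peak. The promoter regions at *URB1*, by TK2-207 and at CKLF-207 each matched SP/KLF and no AP1.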

How the data were processed

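Peak lists of 4 of 9 samples were used, and the other 5 were not analysed here. Before deposit, the authors ran CutAdapt on the reads, Bowtie2 against Hg19, and Picard to drop duplicates. Peaks were then called by MACS2 in broad mode, 1 library at a time, with the total input as control (versions not given in the sources used here). The deposited columns hold a score, a fold enrichment (ratio) and the −log10 of the p-value and q-value. Read depth is unknown.

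Labels and methods differ on the lists. Pooling all peaks gave 40731 regions, 28 of them outside the autosomes, X and Y. The methods give the same total for the pooled DMSO samples, with 28 removed, whereas the labels assign 2 lists to rottlerin. Groups follow the labels, as does the stimulation time, for which the methods give a shorter one.

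Peaks overlapping by at least 1 bp, or touching, were joined. A region took the highest fold enrichment of each list. Genes came from GENCODE release 44 on GRCh37, and all peaks lay within its chromosome lengths. A ratio to NS used regions with peaks in both lists. Shares have 95% Wilson intervals. The named genes were *EVA1C*, *TK2*, every gene overlapping them or starting within 50 kb, the next coding genes, 4 related groups, and the genes nearest the other 3 top peaks. Members, groups and motif sequences were chosen with earlier results of these data known. The steps were tested on simulated data. Alternatives covered joining, q-value, score, list length, coverage, window, gene start, leaving out a list and the motif window. The software was Python 3.11.15 with numpy 2.4.6, pysam 0.24.0 and matplotlib 3.10.9, and samtools 1.23.1.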

Additional observations from a re-analysis of the deposited data

How the results depend on the processing

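Of 94 values under alternative settings for 16 results, 64 stayed within the limits set for no change and 30 moved. With the higher-scoring 50% of each list, regions numbered 2 at *EVA1C*, 0 of them in every list but NS, and 4 at *TK2*, where 3 lacked an NS peak, as did 52.1% of all regions. Where a peak had to cover 50% of the region, 0 regions at *EVA1C* were in every list but NS, since the narrow peaks cover less of the merged region, and the shares of all regions were 60.2% without an NS peak and 6.32% in every list but NS. With each list cut to 18977 peaks these shares were 41.6% and 5.65%. A window of 25 kb left 3 regions at *EVA1C*, and counting from the start of any transcript gave 2 without an NS peak. With q-values of 0.05 or less, *TK2* had 8 regions, as the region with a score of 10 was left out. Of these, 2 were in every list but NS, because the NS peak of 2.83 in *CKLF* was left out.

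Leaving out 1 list at a time gave 2 to 5 regions at *EVA1C*, the lowest without the NS list, 7 to 9 at *TK2*, where 4 to 6 lacked an NS peak, and 1 to 2 in every remaining list but NS, the latter without the list labelled NS, rottlerin. Over all regions 43.3 to 51.4% then lacked an NS peak and 9.57 to 16.2% were in every remaining list but NS. By score, the *EVA1C* intron peak lay above 99.2%, 44.2% and 99.5% of the peaks of its lists and the *TK2* peak above 98.2%, 81.8% and 92.7%. Motif families matched numbered 6 in the whole *EVA1C* region and 3 in the stretch shared by its lists, against 1 in the central bases, and 5 in the whole *TK2* region against 3.

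No paired analysis was possible because each list holds 1 library and no test was made. Depth is unknown, so a peak missing from the NS list cannot be told apart from one below its detection limit, and the lists differ in length. Which cells 3 of the lists describe is in doubt.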
